A study of Bos taurus with 90 samples.

Results

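The cluster partners miR-132 and miR-212 and the unrelated miR-184 were followed across 5 tissues and 3 diets of dairy cows. Members were the rows of the deposited expression files that carry these 3 names, out of 388 miRNA names that any tissue lists. miR-132 was listed in all 5 tissues, miR-184 in rumen, duodenum and jejunum, and miR-212 in duodenum and jejunum only. The row names do not say which arm of each precursor was counted.

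The 90 small RNA libraries came from 18 mid-lactation Chinese Holstein cows, each giving rumen, duodenum and jejunum epithelium, liver and mammary gland. The 6 cows of each group received alfalfa hay, corn stover or rice straw as the forage of their ration. No untreated group was part of the design, so the diets were compared with each other. Values are CPM, the reads of a miRNA divided by all reads that the sample had on annotated miRNAs and scaled to a common total. In bulk tissue, fewer cells of a type and less RNA per cell cannot be told apart.

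MIR132 and MIR212 are neighbouring genes that are known to be transcribed together, and their mature miRNAs are related in sequence. In neurons their transcription is induced by the factor CREB, and miR-132 is best known for regulating dendrite growth and synapses and for its role in immune cells. miR-184 is best known from the corneal and other surface epithelia and from neural stem cells. In the RefSeq annotation of ARS-UCD2.0, MIR132 and MIR212 were adjacent, with OVCA2 and DPH1 on the one side and HIC1 on the other. MIR184 lay within the long non-coding RNA gene LOC112443131, between RASGRF1 and ANKRD34C. HIC1 encodes a transcriptional repressor and RASGRF1 an exchange factor for Ras proteins.

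The mapped reads recovered from the smallest CPM steps ranged from 937556 to 15621501 per sample, with a median of 5778304.5. The number of reads behind a value sets its precision, and 3 reads corresponded to between 0.192 and 3.2 CPM, depending on the sample. Intervals given for single values cover counting error only, because PCR copies were not told apart. Marker miRNAs were checked against the labelled tissues. miR-122, the hepatocyte miRNA, averaged 11021 CPM in liver and 7.88 CPM in mammary gland and was not listed elsewhere. The intestinal miR-192, miR-194 and miR-215 summed to 321899 CPM in duodenum and 231841 CPM in jejunum, and miR-205 and miR-31 of stratified epithelium summed to 38212 CPM in rumen. The intestinal list was also high in liver, at 146227 CPM. The secretory epithelium list averaged 41052 CPM in mammary gland, against 19787 CPM in rumen, 11305 CPM in duodenum, 8020 CPM in jejunum and 508 CPM in liver.

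Before any diet result, 3 libraries have to be set apart. In jejunum of cows fed corn stover, replicates 1, 2 and 6 held 281, 440 and 221 CPM on miRNAs outside the jejunum list, whereas the other 87 samples held 18.7 to 106 CPM on unlisted miRNAs. These 3 libraries also had 8.13 to 37.7 CPM of miR-31 in place of the 183 to 478 CPM of the other 15 jejunum samples. The tests of the members, their correlations and their likeness lists that include jejunum of cows fed corn stover were therefore repeated without them, a choice made after seeing the data, while levels and ranges are given over all samples.

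miR-132 was a small intestinal miRNA in this series. Its mean level was 166.9 ± 35.9 CPM in jejunum and 125.8 ± 32.4 CPM in duodenum, against 22.2 ± 8.35 CPM in rumen, 20.3 ± 8.64 CPM in mammary gland and 10.3 ± 4.25 CPM in liver (SD, n = 18 each). It ranked 121st of 337 listed miRNAs in jejunum and 128th of 338 in duodenum, but 199th of 340 in rumen, 203rd of 328 in mammary gland and 218th of 330 in liver. The spread between cows was wider than counting error. In jejunum the coefficient of variation was 21.5%, where the reads alone would give 2.98%, and in liver it was 41.0% against 16.6%.

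**Figure D1:**
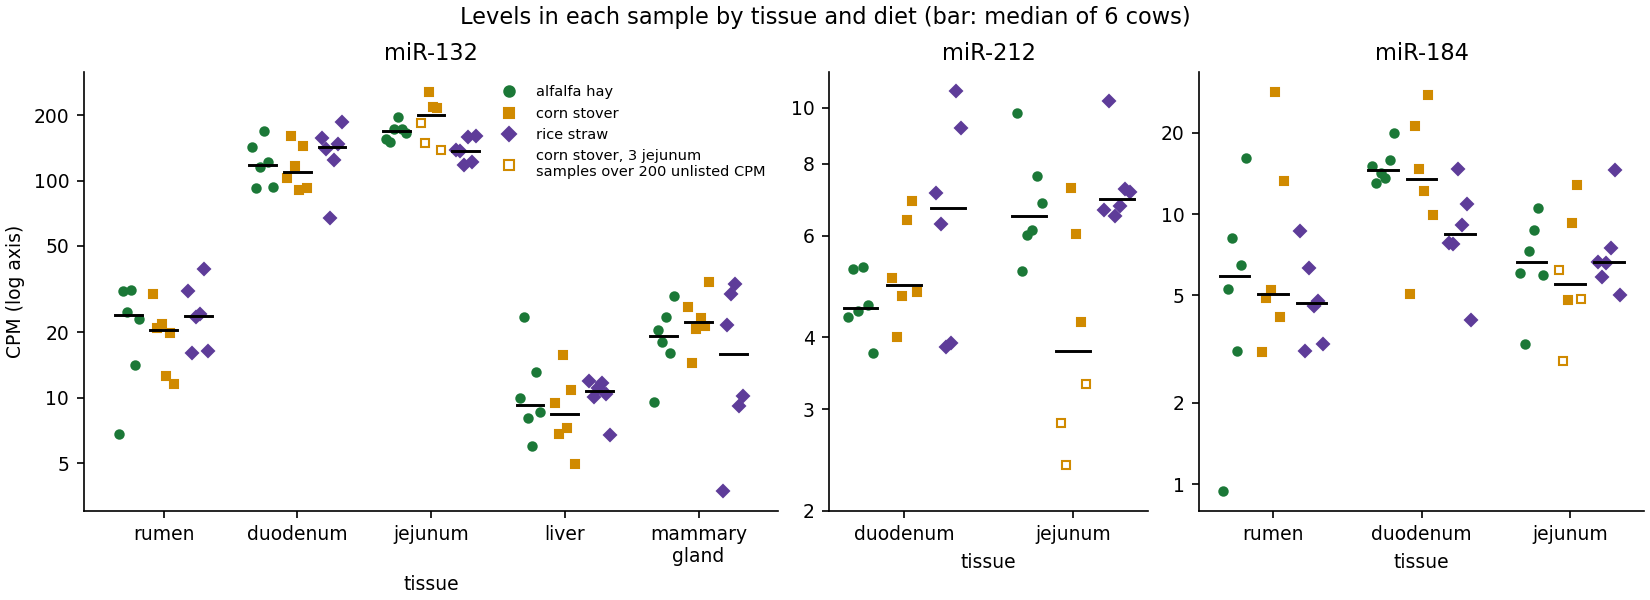
CPM of each member in every sample (log axis), by tissue and by diet, with a bar at the median of the 6 cows of a diet and open squares for the 3 jejunum libraries set apart. All miR-132 values of duodenum and jejunum, from 67.0 to 255 CPM, lie above all values of the other tissues, which reach 39.1 CPM, whereas miR-184 overlaps among its 3 tissues.

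No duodenum or jejunum sample overlapped a sample of the other tissues in miR-132. Its lowest intestinal value was 67.0 CPM, in a duodenum of a cow fed rice straw, and the highest value outside the intestine was 39.1 CPM, in a rumen. Of the 289 miRNAs listed in all tissues, 1.73% showed such a gap in this direction, and the 5 were miR-132, miR-138, miR-142-3p, miR-142-5p and miR-215. miR-138 is a neuronal miRNA, the miR-142 arms are markers of blood-derived cells, and miR-215 marks the intestinal epithelium.

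On the log2(CPM + 1) scale, miR-132 was higher than in rumen by 2.51 (SE 0.17, adjusted p = 3.35e-24) in duodenum and by 2.93 (SE 0.17, adjusted p = 1.38e-28) in jejunum, by limma with Benjamini-Hochberg adjustment. Such contrasts were common, since 71.6% of miRNAs differed between duodenum and rumen, 27.0% being higher in duodenum, and 73.4% differed between jejunum and rumen. Without the 3 libraries set apart, jejunum minus rumen was 2.95 (adjusted p = 1.55e-26). The order below the intestine was rumen, mammary gland and liver. Liver was lower than rumen, with a log2 difference of -1.01 (SE 0.17, adjusted p = 2.03e-07), and mammary gland was higher than liver by 0.84 (SE 0.17, adjusted p = 1.47e-05). In these contrasts 82.7% and 69.2% of miRNAs passed. Rumen and mammary gland, the neighbours in that order, were not distinguished, with a log2 difference of -0.17 for mammary gland minus rumen (95% interval -0.52 to 0.18, adjusted p = 0.372), although 82.7% of miRNAs passed there too.

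Jejunum exceeded duodenum in miR-132. The log2 difference was 0.42 (SE 0.11, adjusted p = 0.00565) in a fit of these 36 samples, where 24.2% of 331 miRNAs passed, 14.2% higher in jejunum. The samples overlapped, as 4 of 18 jejunum samples lay above every duodenum sample. The difference was 0.49 (SE 0.16, adjusted p = 0.0462) within alfalfa hay and 0.71 (SE 0.19, adjusted p = 0.00960) within corn stover, but 0.07 (SE 0.20, adjusted p = 0.931) within rice straw. Without the 3 libraries set apart it was 0.44 (SE 0.12, adjusted p = 0.00737), and 19.0% of miRNAs passed. Within corn stover, without these libraries, it was 0.99 (SE 0.20, adjusted p = 0.00477).

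Of the marker lists, those of immune cells, intestinal epithelium and enteroendocrine cells averaged higher in duodenum and jejunum than elsewhere, as miR-132 did. The intestinal list averaged 321899 CPM in duodenum and 231841 in jejunum, against 146227 in liver, 3259 in rumen and 2890 in mammary gland. The enteroendocrine list, miR-375 and miR-7, averaged 6862 and 4277 CPM, against 122, 61.1 and 1875 CPM in the same order of tissues. Immune cell miRNAs, 6 of 6 listed in each tissue, summed to 17743 to 46516 CPM in duodenum and 19730 to 37150 CPM in jejunum, against 3613 to 11333 CPM in rumen, 4797 to 12681 CPM in liver and 885 to 9904 CPM in mammary gland. The sums of the smooth muscle and endothelial lists did not follow the order of miR-132. The smooth muscle list, all 5 of which were listed, summed to a mean of 213553 CPM in jejunum, 163342 CPM in duodenum, 176729 CPM in rumen, 127378 CPM in liver and 147543 CPM in mammary gland. Almost all of that sum was miR-143. miR-133a averaged 292 CPM in jejunum and 225 CPM in duodenum, against 58.2, 165 and 114 CPM in rumen, liver and mammary gland. miR-133b averaged 6.70 and 5.12 CPM, against 1.24, 2.32 and 2.03 CPM. Medians of miR-1 were 15.3 and 16.2 CPM, against 1.22, 2.07 and 4.23 CPM, although a mammary gland sample reached 430 CPM. Means of miR-143 and miR-145 were higher in rumen than in duodenum. The endothelial list averaged 19396 CPM in duodenum and 20032 CPM in jejunum, below the 28032 CPM of rumen, 27666 CPM of liver and 36346 CPM of mammary gland. The part of these lists in the miR-132 levels was not tested.

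The neural miRNAs, a list of 18 names, gave a mixed picture beside miR-132. Only 8 of the names were listed in all tissues. Between duodenum and rumen 4 of the 8 were higher and 2 lower, with a median log2 difference of 0.69 beside -0.19 over all 289 miRNAs, of which 71.6% passed and 27.0% were higher in duodenum. The 4 higher were miR-375 (log2 difference 8.15), an enteroendocrine and islet miRNA, miR-138 (3.16), miR-7 (1.30) and miR-487b (1.11). The lower names were miR-204, at -1.28, and miR-218, at -0.52. Rumen listed 16 of the 18 names, but those missing from liver or mammary gland were left out of this count. Of those left out, miR-153 averaged 60.04 CPM in duodenum against 4.79 CPM in rumen, and miR-129-3p 7.16 against 1.69 CPM. Means of miR-124a and miR-124b (12.1 against 4.73 CPM), miR-211 (29.3 against 16.3 CPM) and miR-9-3p (3.10 against 2.57 CPM) were also higher in duodenum. The identical rows miR-129 and miR-129-5p were lower there (7.10 against 9.10 CPM). Between liver and duodenum 5 of 8 were lower in liver and 2 higher, where 82.0% of all miRNAs differed, with a median of -1.95 beside -0.36 over all miRNAs. Between jejunum and duodenum all 18 names were tested, and 2 were higher in jejunum and 4 lower, beside 14.2% of all miRNAs higher and 9.97% lower. There miR-218 (0.33) and miR-211 (0.81) were higher with miR-132, and miR-7 (-0.91), miR-153 (-0.80), miR-375 (-0.68) and miR-9-3p (-0.25) were lower. With the 3 libraries left out 3 were higher, miR-204 being the added name, and 3 lower, miR-9-3p no longer passing. In rumen, duodenum and jejunum the rows of miR-124a and miR-124b were identical in every sample, as were those of miR-129 and miR-129-5p, so the 18 names stood for fewer separate measurements.

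Over all 90 samples, the 5 miRNAs of at least 10 CPM whose log2(CPM + 1) followed miR-132 most closely were miR-138 (Pearson r = 0.92), miR-342 (0.87), miR-324 (0.85), miR-142-3p (0.85) and miR-155 (0.85), out of 237 candidates. These samples share cows and the tissue steps, and after the tissue means were removed the same coefficients were 0.42, 0.32, 0.62, 0.38 and 0.35. Over the 87 samples without the libraries set apart, r was between 0.85 and 0.91 for these 5, and miR-324 was then placed 6th. miR-138 had the same order at the top, with 132 CPM in jejunum and 117 CPM in duodenum, then 13.2 CPM in rumen, 5.54 CPM in liver and 4.11 CPM in mammary gland. miR-155 is induced in activated lymphocytes and macrophages, and it had 607 CPM in duodenum and 542 CPM in jejunum.

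miR-212 had far lower CPM than its partner. Its level was 5.59 ± 1.91 CPM in duodenum, from 3.76 to 10.7 CPM, and 6.24 ± 2.09 CPM in jejunum, from 2.41 to 10.3 CPM (SD, n = 18 each). These values rested on 28 to 75 reads per sample in duodenum and 21 to 77 in jejunum. It ranked 258th of 338 and 257th of 337 listed miRNAs. The coefficients of variation, 34.2% and 33.5%, were above the 15.8% and 16.04% that counting alone would give.

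The tissues did not separate in miR-212. The log2 difference of jejunum minus duodenum was 0.12 (95% interval -0.16 to 0.40, adjusted p = 0.586, limma). Without the 3 libraries set apart it was 0.29 (adjusted p = 0.0836), and within corn stover, also without them, 0.11 (SE 0.22, adjusted p = 0.765). Rumen, liver and mammary gland do not list miR-212, and the CPM left outside their lists limits it to at most 51.5 to 106 CPM in single rumen samples, 43.9 to 82.5 CPM in liver and 18.7 to 96.5 CPM in mammary gland. Such limits give all unlisted reads to miR-212 and are above its level in the intestine, so by themselves they show no tissue difference. The authors report miR-212 as expressed in lower gut tissues only, and miR-184 as specific to rumen and gut. Their rule for expression in a tissue was more than 1 CPM in most of its samples. Whether the missing rows were left out by that rule was not tested.

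miR-184 was highest in duodenum. The mean level there was 13.2 ± 5.83 CPM (from 4.05 to 27.6), against 7.15 ± 3.06 CPM in jejunum (from 2.86 to 14.5) and 7.21 ± 6.44 CPM in rumen (from 0.943 to 28.3; SD, n = 18 each). The rumen spread was the widest of the 3, with a coefficient of variation of 89.4% where the reads would give 23.8%. Its lowest rumen value rested on 4 reads, with a 95% counting interval of 0.257 to 2.42 CPM, and its highest, in a cow fed corn stover, on 92 reads.

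The log2 difference of duodenum minus rumen in miR-184 was 0.95 (SE 0.23, adjusted p = 0.00016), in a fit of 54 samples where 76.8% of 311 miRNAs passed. Jejunum fell below duodenum, with a log2 difference of -0.76 (SE 0.19, adjusted p = 0.00229), beside 9.97% of miRNAs that were lower in jejunum. Jejunum and rumen were not distinguished (0.19, 95% interval -0.26 to 0.64, adjusted p = 0.440), where 75.9% of miRNAs passed. This contrast was 0.29 (SE 0.24, adjusted p = 0.274) without the 3 libraries. The groups overlapped, with 7 of 18 duodenum samples above every jejunum sample. Jejunum minus duodenum was -1.09 (SE 0.21, adjusted p = 0.00396) within alfalfa hay and -1.01 (SE 0.37, adjusted p = 0.0449) within corn stover, but -0.20 (SE 0.27, adjusted p = 0.843) within rice straw. Without the 3 libraries it was -0.67 (SE 0.19, adjusted p = 0.00925) over all diets. Within corn stover, without them, it missed the threshold at -0.62 (SE 0.44, adjusted p = 0.367).

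The 5 miRNAs most like miR-184 over the 54 samples were miR-130b (r = 0.52), miR-301b (0.50), miR-148a (0.49), miR-6524 (0.46) and miR-7 (0.45). The likeness was weaker than for miR-132 and dropped to between 0.12 and 0.32 once tissue means were removed. Without the libraries set apart r was between 0.41 and 0.51 for these 5, and miR-130b kept the 1st place while miR-7 moved to the 14th. miR-130b and miR-301b belong to the same miRNA family. miR-7 had 77.0 CPM in duodenum, 41.5 CPM in jejunum and 30.9 CPM in rumen.

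In jejunum, miR-212 was lower with corn stover than with either other forage. The cows fed corn stover had 2.85, 2.41, 7.27, 6.04, 4.26 and 3.31 CPM in replicates 1 to 6. With alfalfa hay the values were 9.80, 5.21, 6.02, 6.15, 7.61 and 6.84 CPM, and with rice straw 6.65, 10.3, 6.49, 6.77, 7.22 and 7.15 CPM. The lowest 4 of the 18 were all from corn stover, but the 2 highest corn stover values lay within the range of the other diets.

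The F test over diets passed for miR-212 in jejunum (limma, adjusted p = 0.0247), where 23.8% of 336 miRNAs passed. On the log2 scale corn stover was lower than alfalfa hay by 0.62 (difference -0.62, SE 0.21, adjusted p = 0.0362), where 22% of miRNAs passed, 14.0% being lower and 8.04% higher. Rice straw was higher than corn stover by 0.71 (SE 0.21, adjusted p = 0.0149), where 28.6% passed, 19.3% being higher and 9.23% lower. Rice straw and alfalfa hay were not distinguished (0.09, 95% interval -0.33 to 0.52, adjusted p = 0.927), and 0 of 336 miRNAs passed in that contrast. This result rested on the libraries set apart, which were the 3 lowest. Without them the F test gave an adjusted p of 0.615, corn stover minus alfalfa hay was -0.21 (SE 0.21, adjusted p = 0.596, 11% of miRNAs passing) and rice straw minus corn stover 0.31 (SE 0.21, adjusted p = 0.391, 10.1% passing). Leaving out replicate 1, 2 or 6 alone gave adjusted p of 0.0694, 0.0814 and 0.0678 for the F test, and TMM scaling (trimmed mean of M values) gave 0.0819. The contrast with alfalfa hay alone also missed the threshold without alfalfa hay replicate 1 (-0.53, adjusted p = 0.0859), 5 (-0.59, adjusted p = 0.0627) or 6 (-0.62, adjusted p = 0.0520).

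miR-132 in jejunum was lower with rice straw than with corn stover in the pairwise contrast. Its values were 183, 148, 255, 217, 215 and 138 CPM with corn stover, 156, 150, 174, 197, 173 and 166 CPM with alfalfa hay, and 138, 137, 117, 159, 122 and 160 CPM with rice straw. The 3 highest of the 18 were from corn stover, no rice straw sample passed 160 CPM, and 2 corn stover samples lay within the rice straw range. The 3 libraries set apart were the lowest of their diet in miR-132, at 183, 148 and 138 CPM, as they were in miR-212. The F test gave an adjusted p of 0.0648, which missed the threshold of 0.05. The contrast of rice straw minus corn stover alone passed, at -0.45 (SE 0.14, adjusted p = 0.0266, limma), beside 9.23% of miRNAs that were lower with rice straw. Corn stover minus alfalfa hay was 0.16 (SE 0.14, adjusted p = 0.423). The call was lost without rice straw replicate 3 (-0.40, adjusted p = 0.0611), rice straw replicate 5 (-0.41, adjusted p = 0.0525) or corn stover replicate 3 (-0.36, adjusted p = 0.0601).

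Leaving out the 3 libraries left miR-132 with a larger diet difference. The F test then gave an adjusted p of 0.00769, where 10.4% of miRNAs passed, and rice straw minus corn stover was -0.73 (SE 0.14, adjusted p = 0.00202). The 3 remaining corn stover samples, at 215 to 255 CPM, were the 3 highest of all. Corn stover minus alfalfa hay was 0.44 (SE 0.14, adjusted p = 0.0564).

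**Figure D2:**
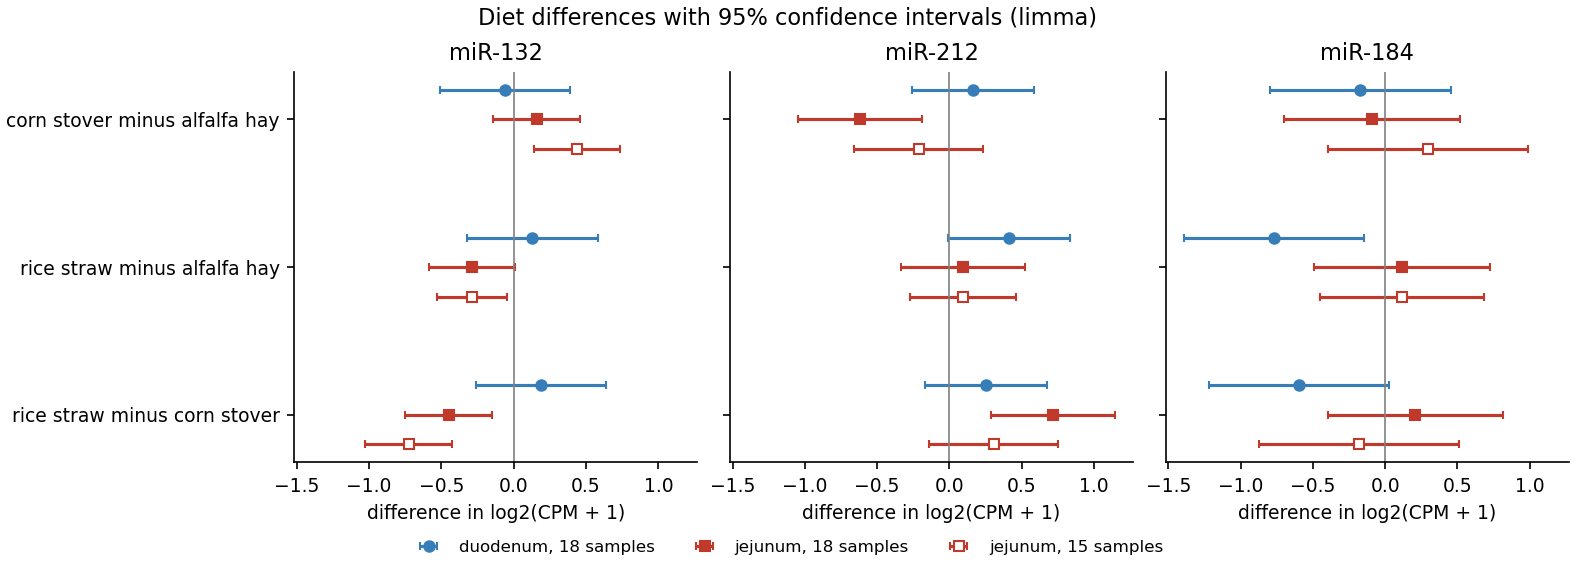
Differences between diets in log2(CPM + 1) with 95% confidence intervals from limma, for each member in duodenum (circles), in jejunum (filled squares) and in jejunum without the 3 libraries set apart (open squares). In jejunum, rice straw minus corn stover was -0.45 for miR-132 and 0.71 for miR-212, and without the 3 libraries -0.73 and 0.31.

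The ratio of the partners within a sample does not depend on the library total. Mature miRNAs have like lengths, so CPM was not divided by length. The ratio of miR-132 to miR-212 had a median of 22.2 in duodenum (13.7 to 40.1) and 26.5 in jejunum (13.3 to 64.5). Over all diets the tissues were not distinguished, with a log2 difference of 0.29 for jejunum minus duodenum (SE 0.18, two-sided permutation test, p = 0.118, 0.220 after adjustment over 10 ratio tests). It was 0.0996 (SE 0.16, permutation p = 0.542) without the 3 libraries set apart.

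Within jejunum the corn stover ratios stood above all others. They were 64.5, 61.6, 35.1, 36, 50.6 and 41.5 in replicates 1 to 6, with a median of 46.1. With alfalfa hay they ranged from 15.9 to 32.1 (median 26.5) and with rice straw from 13.3 to 23.6 (median 19.4). The 6 corn stover samples therefore overlapped neither of the other diets, and rice straw and alfalfa hay overlapped each other. Many single miRNAs also differed between corn stover and the other diets in jejunum, as given above. Ratios of other miRNA pairs were not tested, so it is not known whether such a gap is particular to these partners.

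The log2 ratio with corn stover exceeded that with alfalfa hay by 0.92 (SE 0.21, two-sided exact permutation test, p = 0.00216, adjusted 0.0108). Against corn stover, rice straw differed by -1.32 (SE 0.20, exact p = 0.00216, adjusted 0.0108). A p of 0.00216 is the smallest that 6 against 6 can give. Rice straw minus alfalfa hay was -0.40 (SE 0.19, exact p = 0.0736, adjusted 0.184), with 0 of 6 rice straw ratios above the alfalfa hay mean.

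The direction of the ratio remained without the 3 libraries. The other corn stover ratios, 35.1, 36 and 50.6, were still above the highest alfalfa hay ratio of 32.1. Corn stover minus alfalfa hay was then 0.69 (SE 0.23, exact p = 0.0238, adjusted 0.0476 over 4 tests) and rice straw minus corn stover -1.09 (SE 0.21, exact p = 0.0119, adjusted 0.0476). For 3 against 6 the smallest possible p is 0.0119. The main ratio tests were adjusted over 10 tests, whereas these 4 leave out duodenum and the test of the tissues over all diets. Over the larger family the adjusted p would be higher, so both calls depend on that choice.

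**Figure D3:**
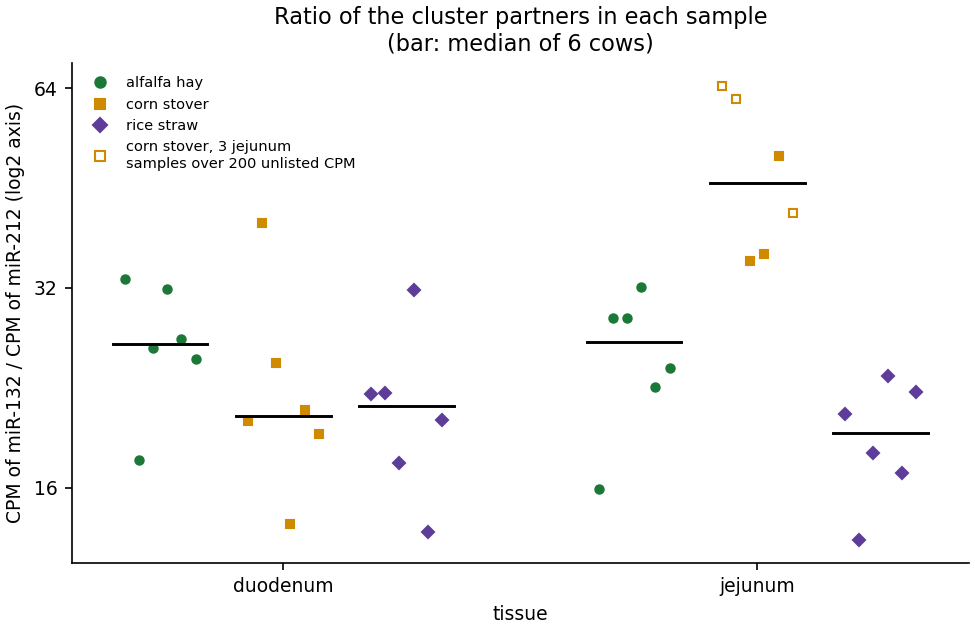
Ratio of miR-132 to miR-212 CPM in each sample of duodenum and jejunum (log2 axis), by diet, with a bar at the median of the 6 cows and open squares for the 3 libraries set apart. In jejunum the corn stover ratios, 35.1 to 64.5, lie above all those of alfalfa hay and rice straw, which reach 32.1, while the diets overlap in duodenum.

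Duodenum did not show this diet difference in the ratio. Corn stover minus alfalfa hay was -0.25 (SE 0.24, exact p = 0.325), rice straw minus alfalfa hay -0.35 (SE 0.21, exact p = 0.132) and rice straw minus corn stover -0.10 (SE 0.26, exact p = 0.716). Within corn stover, jejunum exceeded duodenum by 1.09 on the log2 scale (SE 0.26, exact p = 0.00649, adjusted 0.0216). This contrast missed the threshold without the 3 libraries, at 0.86 (SE 0.27, exact p = 0.0595, adjusted 0.0736). Within alfalfa hay it was -0.08 (SE 0.20, exact p = 0.697) and within rice straw -0.13 (SE 0.21, exact p = 0.550).

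For the single miRNAs, the test of whether diets act differently in jejunum and duodenum did not pass after adjustment. The limma F test of tissue by diet gave adjusted p = 0.183 for miR-132, 0.124 for miR-212 and 0.231 for miR-184, where 20.5% of 331 miRNAs passed. With TMM scaling the adjusted p for miR-132 was 0.0367. The adjusted p was 0.0830, 0.648 and 0.361 in the same order without the 3 libraries.

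Some cell type markers differed between the jejunum samples along with these diets. The endothelial miR-126 arms summed to 8000 to 12443 CPM in the 3 libraries set apart and 14560 to 17708 CPM in the other corn stover samples, against 18498 to 28030 CPM with alfalfa hay and 19516 to 29441 CPM with rice straw. The immune cell list summed to 19730 to 22251 CPM in the 3 libraries and 25861 to 32062 CPM in the other corn stover samples, against 23874 to 37150 CPM with alfalfa hay and 24668 to 35587 CPM with rice straw. Those other corn stover samples lay within the ranges of both other diets. Of the immune names only miR-146a passed over the diets (limma F test, adjusted p = 0.00294). In the same test miR-142-5p (0.0921), miR-142-3p (0.227), miR-150 (0.313), miR-155 (0.0698) and miR-223 (0.690) did not pass. Smooth muscle miRNAs summed to 184740 to 269418 CPM and 250467 to 297242 CPM in the same sets of corn stover samples, against 147348 to 247263 CPM with alfalfa hay and 152191 to 238001 CPM with rice straw. Almost all of that sum was miR-143, with means of 246215 CPM with corn stover, 197852 CPM with alfalfa hay and 188501 CPM with rice straw, and miR-143 passed neither contrast (corn stover minus alfalfa hay 0.32, adjusted p = 0.117, and rice straw minus corn stover -0.38, adjusted p = 0.0613, limma). The scarcer miR-1 and miR-145 were lower with corn stover than with alfalfa hay, at -1.20 (adjusted p = 7.77e-05) and -0.75 (adjusted p = 0.00251), and higher with rice straw than with corn stover, at 1.08 (adjusted p = 0.000293) and 0.57 (adjusted p = 0.0149). With the 3 libraries left out these calls held, except that miR-145 for rice straw minus corn stover missed the threshold at 0.49 (adjusted p = 0.0891). The other names of the list, miR-133a (mean 292 CPM in jejunum) and miR-133b (6.70 CPM), did not pass over the diets there (limma F test, adjusted p = 0.880 and 0.470). The intestinal epithelium list, at 157044 to 305331 CPM and 169059 to 220405 CPM with corn stover, overlapped both other diets. The enteroendocrine list, almost all of it miR-375, summed to 5327 to 6966 CPM in the 3 libraries and 3465 to 4799 CPM in the other corn stover samples. With alfalfa hay its sum was 2699 to 4602 CPM, and with rice straw 3174 to 5390 CPM. The part of these cell types in the miR-132 and miR-212 differences was not tested.

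Among the 18 neural names in jejunum, 5 were higher with rice straw than with corn stover and 0 lower, with a median log2 difference of 0.32 beside 0.18 over all miRNAs and 19.3% of miRNAs higher and 9.23% lower. These were miR-7 (0.87), the identical rows miR-124a and miR-124b (1.43), miR-218 (0.51) and miR-153 (0.50). miR-132 went against them, and miR-212 had the same sign. Corn stover against alfalfa hay gave 2 higher, miR-128 (0.47) and miR-375 (0.51), and 1 lower, miR-204 (-0.56), beside 8.04% and 14.0% of all miRNAs. Without the 3 libraries 0 of 18 names passed for rice straw minus corn stover and 1, miR-128, passed for corn stover minus alfalfa hay, beside 10.1% and 11% of all miRNAs.

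In duodenum no member passed a diet test, and 0 of 336 miRNAs did in any of the diet contrasts. The nearest was miR-184, which was 7.83, 7.73, 14.7, 9.10, 10.9 and 4.05 CPM with rice straw against 15.03, 13.1, 14.2, 13.6, 15.9 and 20.1 CPM with alfalfa hay. Only the rice straw value of 14.7 CPM lay within the alfalfa hay range. With corn stover the spread was wider, from 5.07 to 27.6 CPM. The log2 difference of rice straw minus alfalfa hay was -0.77 (SE 0.30, unadjusted p = 0.0184, adjusted p = 0.377, limma).

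miR-212 in duodenum ranged from 3.84 to 10.7 CPM with rice straw, from 3.76 to 5.29 CPM with alfalfa hay and from 4.002 to 6.90 CPM with corn stover. Rice straw minus alfalfa hay was 0.41 (SE 0.20, adjusted p = 0.449, limma). miR-132 in duodenum had means of 137 CPM with rice straw, 122 CPM with alfalfa hay and 118 CPM with corn stover, with an F test at adjusted p = 0.908.

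Outside the intestine, diet did not separate miR-132 at this depth and number of cows. Rumen means were 21.9 CPM with alfalfa hay, 19.5 CPM with corn stover and 25.1 CPM with rice straw (F test, adjusted p = 0.739, beside 1.49% of miRNAs passing). Liver means were 11.5, 9.18 and 10.3 CPM in the same order of diets (adjusted p = 0.922, 0 of 326 miRNAs passing). In mammary gland they were 19.5, 23.3 and 18.1 CPM (adjusted p = 0.534, beside 3.72% passing). Rice straw minus corn stover in mammary gland was -0.62 (95% interval -1.51 to 0.27, adjusted p = 0.297), where 26.6% of miRNAs passed, and the lowest rice straw value of 3.73 CPM rested on 7 reads.

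miR-184 in rumen had a median of 5.88 CPM with alfalfa hay, 5.07 CPM with corn stover and 4.67 CPM with rice straw (F test, adjusted p = 0.739). In jejunum the medians were 6.66, 5.53 and 6.63 CPM (adjusted p = 0.836). Neither tissue showed a diet difference in miR-184 larger than the spread between cows.

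No correlation between the partners passed after adjustment. In duodenum the correlation of log2(CPM + 1) between miR-132 and miR-212 was r = 0.49 (permutation test, p = 0.0386, 0.270 after adjustment over 7 correlations) and rho = 0.42 (permutation p = 0.0808, adjusted 0.283). It was 0.28 without the 2 samples farthest from the median of miR-132, so the relation rested on them. Within diets of 6 cows r was 0.35 with alfalfa hay, -0.21 with corn stover and 0.75 with rice straw, and over the 18 samples it was 0.48 once diet means were removed.

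In jejunum r was -0.08 (permutation test, p = 0.761, adjusted 0.887) and rho -0.14 (permutation p = 0.569, adjusted 0.826), and r was -0.21 without the 2 farthest samples. Within diets it was -0.14 with alfalfa hay, 0.85 with corn stover and 0.03 with rice straw, and over the 18 samples it was 0.56 once diet means were removed. The corn stover value joined the 3 libraries set apart to the 3 others, which were higher in both partners. Over the 15 samples without those libraries r was -0.33 (permutation p = 0.232), and 0.10 with diet means removed.

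**Figure D4:**
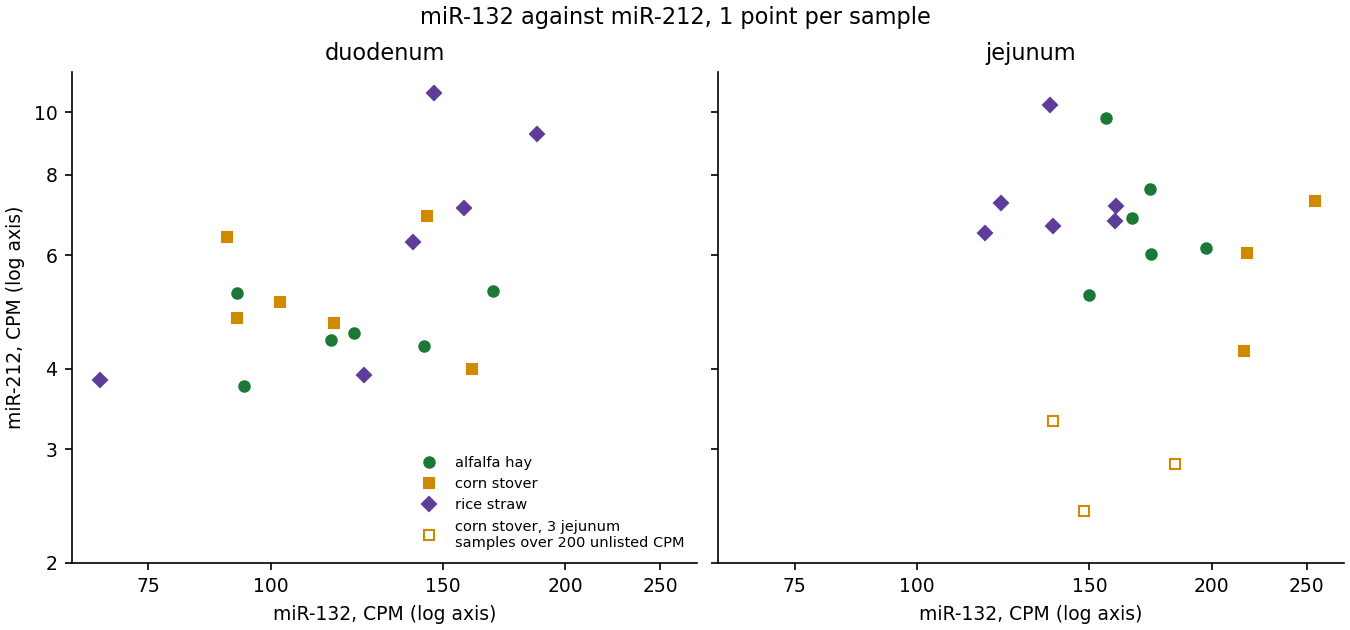
CPM of miR-212 against CPM of miR-132 in each sample of duodenum (left) and jejunum (right), log axes, coloured by diet with open squares for the 3 libraries set apart. Over the 18 samples r was 0.49 in duodenum and -0.08 in jejunum, where the corn stover samples lie to the right of or below the others.

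By likeness to miR-132 across the samples of a tissue, miR-212 was placed 83rd of 337 other miRNAs in duodenum and 218th of 336 in jejunum, or 258th without the libraries set apart. Over the 36 samples of both tissues, the miRNAs most like miR-212 were miR-125a (r = 0.78), miR-151-5p (0.76), miR-30d (0.74), miR-126-5p (0.74) and miR-146a (0.70), which kept 0.71 to 0.78 after tissue means were removed. Without the libraries set apart r fell to between 0.51 and 0.71 over 33 samples, and miR-146a was placed 16th. These are abundant miRNAs, from 2294 CPM for miR-125a to 15401 CPM for miR-126-5p, the latter an endothelial marker and miR-146a an immune cell marker. The pairs of miR-184 with the other members had r between -0.42 and 0.30, and none passed after adjustment. Without the libraries set apart, r in jejunum was 0.05 for miR-184 with miR-132 and -0.20 with miR-212.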

How the data were processed

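Small RNA libraries (TruSeq kit, HiSeq 2000) of 90 samples were used, 6 per tissue and diet, and groups were taken from the labels, which give no batch or date. The authors filtered reads with CASAVA 1.8, aligned those over 15 nt to bovine precursors of miRBase 22 with sRNAbench (seed length 20, 2 mismatches, up to 10 mappings), and deposited values that are CPM, although the study calls them raw counts. The arm of each row and the genome build are not given in the sources used here. Reads of near-identical miRNAs could be shared between rows.

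The CPM of each sample's low values were whole multiples of 1 step, which was taken as 1 read (tolerance 0.02 reads), to give depth and Poisson intervals (95%). Levels were tested as log2(CPM + 1), without further scaling, with limma 3.58.1 in R 4.3.3 (intensity trend, Benjamini-Hochberg adjustment, threshold 0.05). Fold changes on this scale understate those of low miRNAs. A miRNA entered a fit when listed in every tissue of it, and over 50% of a tissue's samples exceeded 1 CPM. Tissue fits took 36, 54 or 90 samples, and diets were compared within the 18 samples of a tissue by an F test and pairwise contrasts. Log2 ratios and correlations were tested by permutation (exact for 6 against 6, otherwise 100000 resamples) with scipy 1.17.1. Scripts were tested on simulated data. The named miRNAs were the members, the 5 most like each of them (mean of at least 10 CPM), the neural list and the marker lists. Members and lists were chosen with earlier results of these data known. Tissues came from the same 18 cows, so samples of different tissues are not independent. Pseudocounts, scalings, filters, blocks, diets taken singly and omitted samples were tried as alternatives.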

Additional observations from a re-analysis of the deposited data

Results flagged for a closer look

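Within the 30 sets of 6 cows (a member in 1 tissue and diet), 3 had a sample far from the other 5 by Dixon's test, and chance alone would give about 1 in 20 sets. All 3 were cows fed rice straw. In jejunum, replicate 2 had the highest miR-212, 10.3 CPM, where the others had 6.49 to 7.22 CPM. Also in jejunum, replicate 5 had the highest miR-184, 14.5 CPM, against 5.04 to 7.49 CPM. In liver, replicate 6 had the lowest miR-132, 6.77 CPM, against 10.1 to 12.0 CPM. None of the 3 decided a diet call, since leaving out each of them in turn changed no diet call of that member in that tissue. The tissue contrasts were not refitted without these single samples.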

How the results depend on the processing

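The alternatives were pseudocounts of 0.1 and 5 CPM, TMM and upper-quartile scaling, no filter on low values, no shallow samples (the 5 of lowest depth), a replicate block, each diet alone, each sample left out, and, chosen after seeing the data, no libraries above 200 unlisted CPM. The count test planned on reads recovered from the CPM was not run, and the cause of each change below was not tested. Every miR-132 contrast of duodenum or jejunum with rumen, liver or mammary gland kept its direction and call. The difference of mammary gland minus rumen in miR-132, which missed the threshold throughout, turned to 0.030 with TMM, 0.12 with upper-quartile scaling, 0.039 without shallow samples and 0.27 within corn stover, and mammary gland minus liver was 0.46 (adjusted p = 0.252) within rice straw. Within rice straw, jejunum minus duodenum lost its call in miR-132 (0.072) and miR-184 (-0.20). Within corn stover, miR-212 jejunum minus duodenum was -0.29, miR-184 duodenum minus rumen 0.79 (adjusted p = 0.129) and miR-184 jejunum minus rumen -0.21. Within corn stover and without the 3 libraries, miR-184 jejunum minus duodenum was -0.62 (adjusted p = 0.367). The jejunum minus duodenum log2 ratio was 1.09 within corn stover, -0.077 within alfalfa hay and -0.13 within rice straw.

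For the diets in jejunum (rice straw minus corn stover), TMM scaling moved the median over all miRNAs from 0.18 to 0.01. It gave -0.64 for miR-132 (limma F test over diets, adjusted p = 0.00137) and 0.56 for miR-212 (adjusted p = 0.0819), and upper-quartile scaling gave -0.51 (0.0158) for miR-132. Without the 3 libraries the values were -0.73 for miR-132, 0.31 for miR-212 and -0.18 for miR-184, whose sign turned. Leaving out 1 sample at a time gave -0.54 to -0.36 for miR-132, whose F test then passed without corn stover replicate 2 or 6, and 0.60 to 0.85 for miR-212. In mammary gland miR-132 rice straw minus corn stover turned to 0.067 with TMM and 0.23 with upper-quartile scaling. With 1 sample omitted, the jejunum log2 ratio was 0.79 to 0.9998 for corn stover minus alfalfa hay and -1.40 to -1.22 for rice straw minus corn stover, with each call kept.

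The replicate numbers were not taken as pairs in the main fits, since no label ties them to a cow. Duodenum and jejunum samples of the same number had a median r of 0.18, against -0.02 for samples of other numbers. Of these, 14 of 18 correlated above 0.1 and 11 of 18 were closest to their own number. A pairing by cow was therefore possible between these tissues, and the main tests of jejunum against duodenum left it out. The block was the diet with the replicate number in tissue fits, but the replicate number alone in diet fits. The latter joins different cows across diets, and in jejunum such samples had a median r of -0.03. With that block, miR-212 between diets in jejunum was 0.71 (adjusted p = 0.0562), and its contrast of corn stover minus alfalfa hay -0.62 (0.0632), both of which passed without it. Neither block changed any other call. At low read numbers depth limits miR-212 (21 to 77 reads a sample in jejunum), miR-184 in rumen (4 to 92) and miR-132 in liver (19 to 164) and mammary gland (from 7).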
